A study of Mus musculus with 6 samples.

Results

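The genes described here are 8 members of the mineralized matrix and osteocyte programme. Of these, 5 encode the SIBLING proteins, the small integrin-binding ligand N-linked glycoproteins: Spp1 (osteopontin), Ibsp (bone sialoprotein), Dmp1 (dentin matrix protein), Mepe (matrix extracellular phosphoglycoprotein) and Dspp (dentin sialophosphoprotein). The other 3 are Phex, Pdpn and Capg, which are used as markers of cells on the way to becoming osteocytes. They were taken by name from the array rows whose transcript accessions map to these symbols. All 8 were found, with 1 probe set of 9 probes each, among 17328 genes with a symbol and 41938 entries tested in all.

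The arrays carried RNA of MC3T3-E1 cells, a preosteoblast line from mouse calvaria, at passages 5 to 12, in 2 groups of 3 samples called biological triplicates by the submitters. The differentiated group (OB_Veh) had been kept for 15 days in medium with 10 mM glycerol-2-phosphate and 50 ug/mL ascorbic acid. The undifferentiated group (POB_Veh) had been kept in growth medium without these supplements. Cells of both groups had received the ethanol vehicle for 24 hours, and no sample here received 1,25(OH)2D3. No arm analysed here separates the supplements or the time in culture from differentiation, and the names of the scanner images put each group in a set of its own, so such a set and the group cannot be told apart. A cell line on plastic is not bone tissue, and no osteocyte-enriched sample was measured here.

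SIBLING proteins are acidic, phosphorylated proteins secreted into the matrix of bone and dentin, where they bind calcium, mineral and integrins. Osteopontin holds mineral crystals back, bone sialoprotein can seed them, and DMP1 is made by osteocytes, the cells that osteoblasts become when matrix encloses them. PHEX is a membrane endopeptidase of osteoblasts and osteocytes whose loss causes phosphate wasting. Podoplanin, also called E11, marks the young osteocyte that grows its dendrites, and CAPG caps the ends of actin filaments.

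Array levels are given as log2 of the deposited intensities after quantile normalization over the 6 arrays. They cannot be compared between genes, because probes differ in how strongly they bind. The random-sequence control probes read 6.69 to 6.73 on differentiated arrays and 6.73 to 6.80 on undifferentiated arrays on this scale, and on any array only 5.75% to 6.77% of probe sets read lower. The deposited name of their row refers to GC content, and whether it matches that of the gene probes is not given in the sources used here, so their level may be too low as a background for some genes. A reading above them is therefore a weak sign of expression. Of 22 measured markers of cartilage, fat, macrophages, osteoclasts, lymphatic vessels and muscle, 18 were also above them on every array. Of these markers Pecam1 and Des were called higher and Adipoq lower, by 1.39-, 1.34- and 1.34-fold. Adipoq no longer passed when undifferentiated replicate 1 or either of differentiated replicates 1 and 2 was dropped (adjusted p = 0.0863 to 0.136). Des no longer passed when undifferentiated replicate 2 or any differentiated replicate was dropped (0.0851 to 0.147), or with cyclic loess (0.0532). Of the 5 osteoblast markers, all lay above the random-sequence probes on every array, and Alpl, Sp7 and Bglap rose while Runx2 and Col1a1 did not pass the test. Undifferentiated replicate 3 lay farthest from its group, with a root mean square deviation of 0.208 on the log2 scale against 0.0820 to 0.154 for the other 5 arrays.

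Dmp1 was the only member whose level passed the test, and it rose steeply in differentiated cells. Of the 8 members 1 was called higher, 0 were called lower and 7 were not called, where a call needs limma's p, adjusted after Benjamini and Hochberg across every entry, to lie under 0.05. At an unadjusted p under 0.05, 2 were higher (Dmp1 and Phex) and 1 was lower (Pdpn). Among genes with a symbol 16.8% were called, 8.67% higher and 8.16% lower, and among all entries 17.0% were called, so the share of members called is near that of genes at large. Calls that were also at least 2-fold higher made up 1.77% of genes with a symbol, and Dmp1 was among them. The median log2 fold change of the 8 members was 0.06, against 0.01 over genes with a symbol. The groups did not overlap for 3 members (Dmp1, Phex and Pdpn), as for 34.8% of genes with a symbol.

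**Figure D1:**
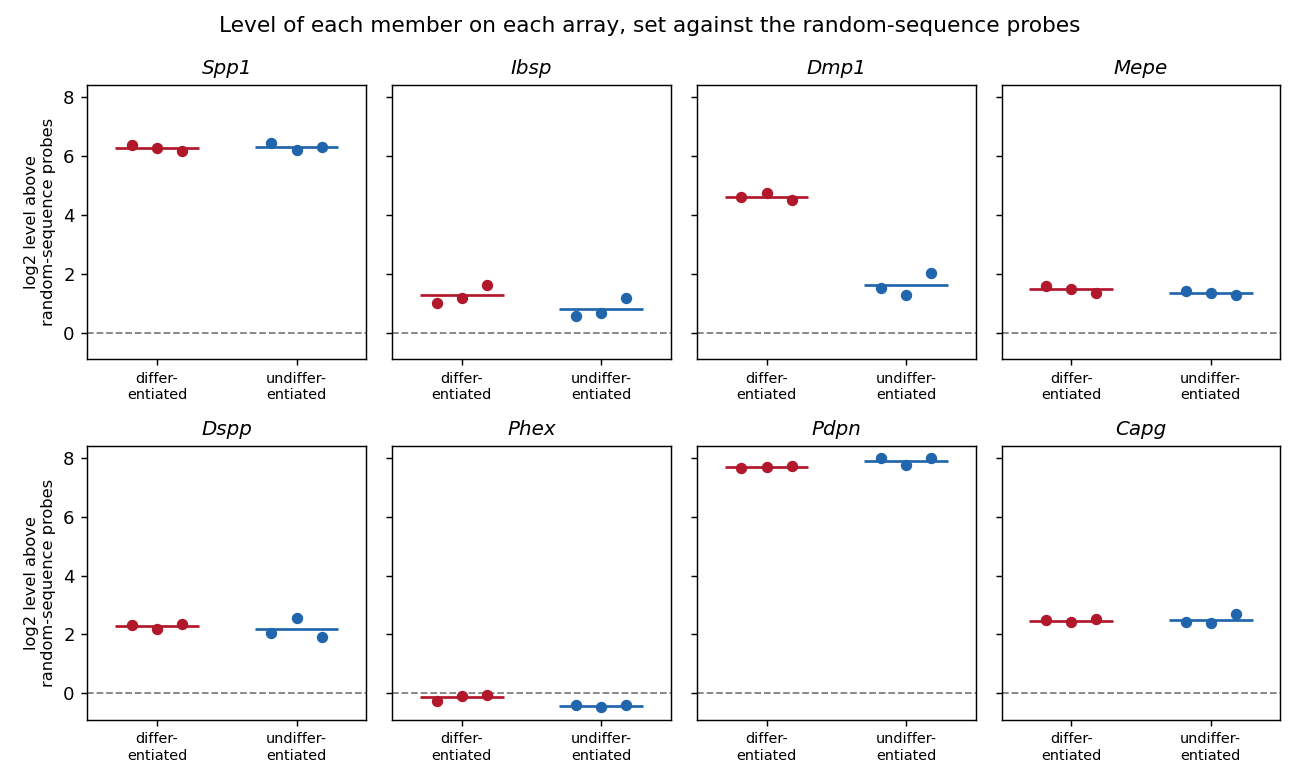
Each panel shows a member. The y axis is the log2 level minus that of the random-sequence probes on the same array (dashed line at 0), points are the 3 arrays of each group in replicate order and lines are group means. Dmp1 stood 4.49 to 4.75 above the line in differentiated cells and 1.29 to 2.01 in undifferentiated cells, while Phex lay below the line on every array.

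Promoter windows of RefSeq (GRCm38.p6), each 250 bases before to 50 bases after a transcript start, were matched by symbol for 7 of the 8 members, in 9 windows. Dspp had no entry. The windows of the SIBLING genes are shown because the genes lie side by side and only Dmp1 among them was called, and because the study was about RUNX2, whose core motif is TGTGGT. Capitals mark that core motif on either strand, so also as its reverse complement ACCACA. They also mark TATAAA on the given strand. The third motif marked is CCAAT, on either strand, so also as ATTGG. No 2 matches overlap. All windows below are on the plus strand, 5′ to 3′. Dmp1 has one at chr5:104197325-104197624 and one at chr5:104202367-104202666, Ibsp at chr5:104299037-104299336, Mepe at chr5:104325079-104325378 and Spp1 at chr5:104434861-104435160.
Dmp1, upstream start: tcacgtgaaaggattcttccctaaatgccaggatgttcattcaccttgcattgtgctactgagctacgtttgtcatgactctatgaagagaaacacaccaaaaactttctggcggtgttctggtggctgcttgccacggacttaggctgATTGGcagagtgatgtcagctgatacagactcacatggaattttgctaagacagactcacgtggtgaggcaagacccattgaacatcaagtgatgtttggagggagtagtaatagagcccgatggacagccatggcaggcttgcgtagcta
Dmp1, downstream start: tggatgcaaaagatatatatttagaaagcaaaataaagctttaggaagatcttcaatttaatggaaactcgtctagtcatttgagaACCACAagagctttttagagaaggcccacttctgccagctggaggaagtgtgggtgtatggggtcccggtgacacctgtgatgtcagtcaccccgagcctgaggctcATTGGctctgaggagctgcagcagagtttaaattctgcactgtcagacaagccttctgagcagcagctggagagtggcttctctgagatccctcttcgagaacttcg
Ibsp: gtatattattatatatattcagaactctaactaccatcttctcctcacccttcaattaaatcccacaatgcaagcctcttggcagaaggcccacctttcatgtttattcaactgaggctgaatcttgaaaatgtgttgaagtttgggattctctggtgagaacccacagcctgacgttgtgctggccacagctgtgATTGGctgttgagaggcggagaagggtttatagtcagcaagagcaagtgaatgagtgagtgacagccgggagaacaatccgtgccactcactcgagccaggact
Mepe: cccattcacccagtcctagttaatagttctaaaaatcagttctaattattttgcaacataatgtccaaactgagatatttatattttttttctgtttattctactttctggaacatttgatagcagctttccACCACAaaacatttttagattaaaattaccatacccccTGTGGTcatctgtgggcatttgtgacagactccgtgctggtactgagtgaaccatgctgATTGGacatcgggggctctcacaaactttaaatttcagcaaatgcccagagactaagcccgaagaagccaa
Spp1: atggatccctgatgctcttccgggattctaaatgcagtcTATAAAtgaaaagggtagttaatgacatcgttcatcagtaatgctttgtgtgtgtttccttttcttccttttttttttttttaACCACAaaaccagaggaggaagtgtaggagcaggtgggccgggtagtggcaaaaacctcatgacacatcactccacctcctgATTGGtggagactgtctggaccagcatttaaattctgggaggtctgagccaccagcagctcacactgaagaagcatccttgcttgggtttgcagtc

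The letters ATTGG stood in 5 of the 6 SIBLING windows, which covers all 4 genes with an entry, and the exception was the downstream window of Spp1, not shown. Its first base lay at -101 and -57 from the 2 starts of Dmp1, at -54 in Ibsp, at -21 in Mepe and at -46 in Spp1. Among all 32851 promoter windows of that length 22.1% hold ATTGG and 37.4% hold ATTGG or CCAAT. The search for these letters was added after the windows had been seen. Dmp1, which rose, and Spp1, Ibsp and Mepe, which did not pass, all carried the letters.

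The RUNX core stood in 3 of the 6 SIBLING windows, against 16.8% of all windows. The 6 windows come from only 4 genes, which are neighbours, so they are not independent of one another. Whether the share of this motif or of ATTGG differs from that of all windows was not tested. It lay at -164 in the downstream window of Dmp1, at -118 and -80 in Mepe and at -128 in Spp1, and the Ibsp window held none. TATAAA, present in 8.32% of all windows, stood at -211 in Spp1. The windows of Phex, Pdpn and Capg held none of the 3 motifs, which says only that these letters are not in those bases. Runx2 itself read 12.48 in differentiated cells and 12.46 in undifferentiated cells.

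Of the SIBLING genes Dmp1 is described first, as the member that changed. DMP1 carries phosphate groups that bind calcium, and it is a classic marker of the osteocyte. Its deposited intensity was 2485.8, 2765.0 and 2445.5 units on differentiated arrays 1 to 3, against 320.3, 279.1 and 404.2 units on undifferentiated arrays 1 to 3. On the log2 scale it read 11.34, 11.45 and 11.22 in differentiated cells, against 8.30, 8.09 and 8.74 in undifferentiated cells. All 3 differentiated arrays were high and close together, and the undifferentiated arrays were low and more spread, with replicate 3 the highest of them. The means were 11.34 ± 0.12 and 8.38 ± 0.33 (SD, n = 3 per group), which differ by 2.96 (95% confidence interval 2.59 to 3.32). That is a 7.77-fold rise (limma adjusted p = 1.38e-05), the 57th largest change in either direction among the 41938 entries. Its undifferentiated values lay 1.29 to 2.01 above the random-sequence probes, whose level may be too low as a background. This limits how far the 7.77-fold rise and its rank can be read as a size. Because RNA came from whole cultures, more cells with the transcript and more transcript per cell cannot be told apart, here or for any gene below.

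Bone sialoprotein, encoded by Ibsp, is a marker of the mature osteoblast. Its log2 level was 7.73, 7.89 and 8.33 on the differentiated arrays, against 7.34, 7.46 and 7.91 on the undifferentiated arrays. The groups overlapped, since undifferentiated replicate 3 lay above differentiated replicates 1 and 2. Both groups lay low, at means of 1.27 and 0.80 above the random-sequence probes in differentiated and undifferentiated cells. The log2 fold change was 0.41 (95% confidence interval -0.02 to 0.84; limma adjusted p = 0.183), which does not pass. Without undifferentiated replicate 3 it was 0.58 and passed (adjusted p = 0.0287), and over the other arrays left out in turn it did not pass. With array weights it was 0.47 and passed (adjusted p = 0.0104). With the replicate number as a block in limma it was 0.41 and passed (adjusted p = 0.0145 by titles and 0.0114 by file names). Whether these numbers pair the samples could not be settled. The interval of the fit without block or weights holds both no change and a rise of 0.84 on the log2 scale.

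Osteopontin, encoded by Spp1, is an abundant phosphoprotein that osteoblasts make from an early stage. Spp1 read 13.08, 12.97 and 12.89 in differentiated cells, against 13.22, 12.98 and 13.02 in undifferentiated cells. All 6 arrays were high, between 6.16 and 6.43 above the random-sequence probes, and the groups overlapped. The log2 fold change of -0.10 (95% confidence interval -0.33 to 0.14; limma adjusted p = 0.594) did not pass, and the interval leaves out any change beyond 0.33 downwards or 0.14 upwards on the log2 scale.

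The last SIBLING genes, Mepe and Dspp, did not pass either. MEPE holds an acidic peptide that inhibits mineralization and that PHEX can bind and cut, and Mepe is read as an osteocyte gene. Mepe had log2 levels of 8.33, 8.18 and 8.08 in differentiated cells and of 8.20, 8.15 and 8.01 in undifferentiated cells. All 6 arrays lay low for Mepe, at 1.29 to 1.60 above the random-sequence probes, which limits how far its lack of a call can be read. DSPP is best known from the odontoblasts of teeth, and bone holds far less of it. Dspp read 9.05, 8.90 and 9.10 on differentiated arrays, against 8.83, 9.38 and 8.65 on undifferentiated arrays. In both genes the groups overlapped, and in Dspp the spread lay in the undifferentiated group, whose replicate 2 was the highest of all 6 arrays. The log2 fold change was 0.07 for Mepe (95% confidence interval -0.16 to 0.31) and 0.06 for Dspp (-0.33 to 0.46), with limma adjusted p = 0.686 and 0.855. For Dspp the sign turned without undifferentiated replicate 3, at -0.09 (adjusted p = 0.730), so no direction can be given.

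Among the markers outside the SIBLING family, Phex was at background in both groups. Its log2 level was 6.49, 6.62 and 6.68 on differentiated arrays and 6.41, 6.34 and 6.34 on undifferentiated arrays, below the random-sequence probes on all 6. The differentiated arrays lay 0.05 to 0.25 below them and the undifferentiated arrays 0.38 to 0.47 below, so the groups did not overlap although no array rose above background. The fitted difference of 0.23 on the log2 scale (limma adjusted p = 0.130) is one between readings below those probes, and it is not read as a fold of Phex RNA under any setting.

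Pdpn was high in both groups, and its difference between them did not pass the test. Its levels of 14.40, 14.38 and 14.43 in differentiated cells all lay below the 14.77, 14.55 and 14.71 of undifferentiated cells. The log2 fold change was -0.27 (95% confidence interval -0.49 to -0.06), with limma adjusted p = 0.0876 over all entries. With array weights it passed (-0.31, adjusted p = 0.00695), as it did with the trend and robust options of eBayes (-0.27, adjusted p = 0.0240). Lymphatic vessels also express Pdpn. Of the 4 markers of lymphatic endothelium, Lyve1 lay below the random-sequence probes on every array. Prox1, Flt4 and Pecam1 lay above them on every array. The intensities of the list were also summed on the linear scale within each array. The log2 of that sum was 10.35 to 10.50 in differentiated cells and 10.09 to 10.30 in undifferentiated cells. Pecam1 had the highest array reading of the 4 and so weighs most in the sum, which is no comparison of RNA amounts between the genes. Pecam1 was called higher in that list, and missed the threshold when undifferentiated replicate 2 or either of differentiated replicates 1 and 2 was dropped (adjusted p = 0.0639 to 0.0879). The cultures were of the MC3T3-E1 preosteoblast line, not of tissue with vessels, and the part of any lymphatic endothelial cells was not tested.

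Capg did not pass the test either. It read 9.23, 9.12 and 9.23 in differentiated cells, against 9.22, 9.20 and 9.41 in undifferentiated cells, with overlapping groups. The log2 fold change was -0.09 (95% confidence interval -0.31 to 0.14; limma adjusted p = 0.615).

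**Figure D2:**
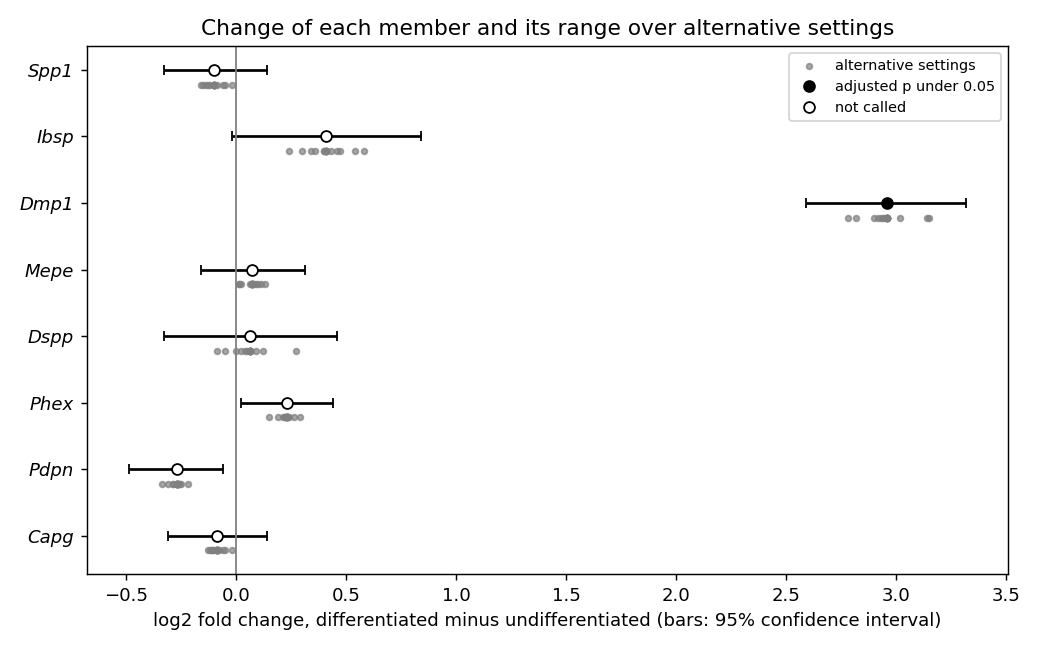
The x axis is the log2 fold change, differentiated minus undifferentiated, and each row is a member. Circles with bars are the estimate and its 95% confidence interval, filled where the adjusted p is under 0.05, and grey points are the values under alternative settings. Dmp1 stands apart at 2.96, with alternatives between 2.78 and 3.15, and the other 7 members lie between -0.27 and 0.41. The point for Phex is a difference between readings below the random-sequence probes.

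The distance between Dmp1 and each relative was also taken within each array, where a shift of the whole array cancels. Dmp1 is the member already called on these same 6 arrays, so these values describe that contrast in another way and are no independent support for it. The log2 difference of Dmp1 and Spp1 was -1.74, -1.52 and -1.67 on differentiated arrays, against -4.92, -4.89 and -4.28 on undifferentiated arrays. For Ibsp, which did not pass the test and had the widest interval, the difference was 3.61, 3.56 and 2.88, against 0.95, 0.63 and 0.83. In all 4 pairs, those with Mepe and Dspp included, every differentiated array lay above every undifferentiated array. The difference between the group means was 3.05 with Spp1, 2.90 with Dspp, 2.88 with Mepe and 2.55 with Ibsp on the log2 scale. Each pair had p = 0.10 in a two-sided exact permutation test over arrays, and 0.10 after Benjamini-Hochberg adjustment over the 4 pairs. That is the smallest p that 3 against 3 allows, so the test could not have passed a threshold of 0.05. Only the change in the difference can be read here, since the differences themselves depend on the probes.

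**Figure D3:**
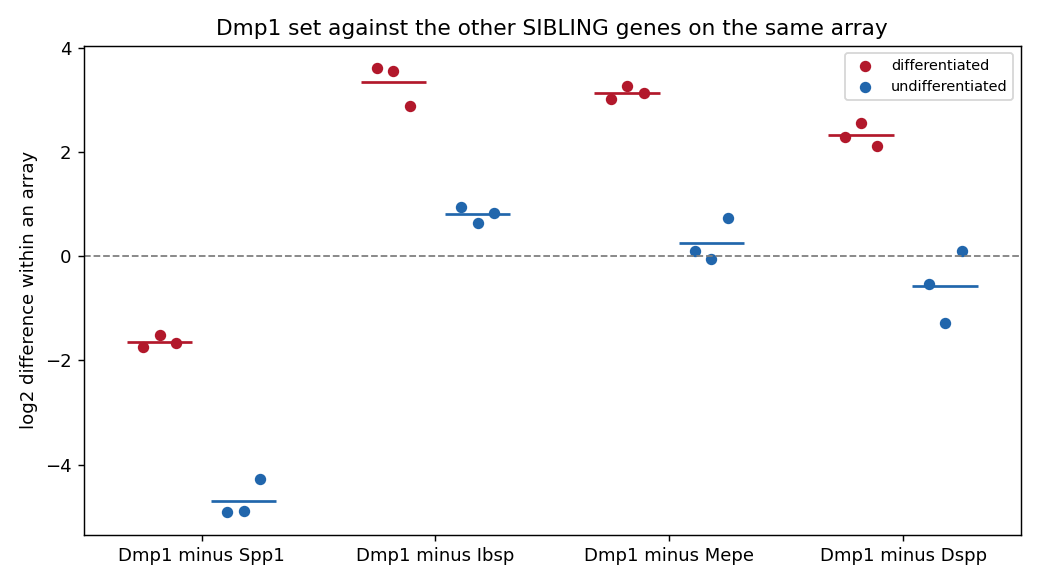
The y axis is the log2 level of Dmp1 minus that of another SIBLING gene on the same array, for 3 differentiated (left of each pair) and 3 undifferentiated arrays, with group means as lines. In each pair all differentiated arrays lie above all undifferentiated arrays, and the group means differ by 2.55 to 3.05.

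The array rows whose pattern was most like that of Dmp1 were sought over the 6 arrays among genes with a symbol. Members were left out, as were genes above the random-sequence probes on fewer than 3 arrays. The measure was the root mean square difference after each gene was centred on its own mean. The 5 nearest were Serpina3n (0.175), Olfml1 (0.193), H1f2 (0.198), Steap4 (0.216) and Alpl (0.217), all in log2 units. Alpl encodes tissue-nonspecific alkaline phosphatase, an enzyme that breaks down the mineral inhibitor pyrophosphate. It read 12.63, 12.50 and 12.60 in differentiated cells, against 9.59, 9.54 and 9.55 in undifferentiated cells. Olfml1 encodes an olfactomedin-like secreted protein, H1f2 a linker histone and Steap4 a metalloreductase. Serpina3n, a secreted serine protease inhibitor, read 10.27, 10.93 and 10.24, against 7.43, 7.35 and 7.92. Its undifferentiated values lay only 0.55 to 1.19 above the random-sequence probes, which limits how far its rise can be read as a size. Like Dmp1, it had its highest undifferentiated value in replicate 3 and its highest differentiated value in replicate 2. The log2 fold changes of the 5 genes ran between 2.66 (Steap4) and 3.17 (Olfml1), against 2.96 for Dmp1, and all 5 were called. They were picked as nearest to Dmp1 on these same 6 arrays, so like fold changes, calls and replicate order follow from that choice.

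The SIBLING genes, some of whose promoters were shown above, are neighbours on mouse chromosome 5, in the order Dspp, Dmp1, Ibsp, Mepe and Spp1 in the RefSeq table of GRCm38.p6. No other measured protein-coding gene lay between them. The member that rose thus sat between neighbours that did not pass, Dspp with a log2 fold change of 0.06 and Ibsp with 0.41. Sparcl1, the measured gene next to Dspp, encodes a secreted SPARC-like matrix protein. It read 15.54, 15.56 and 15.56 in differentiated cells, against 14.32, 14.27 and 14.55 in undifferentiated cells, a 2.26-fold rise (limma adjusted p = 0.000161). Pkd2, next to Spp1, did not pass (log2 fold change -0.25 ± 0.11 SE).

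Of the 10 measured protein-coding genes on each side of the cluster, 20 in all, 9 rose, 2 fell and 9 were not called, with a median log2 fold change of 0.24. Among all genes with a symbol 8.67% were called higher and 8.16% lower. Of the neighbours that rose, 5 were the guanylate-binding protein genes Gbp4, Gbp6, Gbp8, Gbp9 and Gbp10, a tandem family of interferon-inducible GTPases, with rises of 2.28-fold (Gbp9) to 4.84-fold (Gbp6). These genes are close copies of one another, and cross-hybridisation between their probe sets was not tested. Without them 4 of 15 neighbours rose. Lrrc8b, a subunit of volume-regulated anion channels, rose 1.80-fold, and Klhl8 and Nudt9 rose 1.36-fold each. Ptpn13 (1.61-fold) and Aff1 (1.42-fold) fell. Klhl8 no longer passed when either of undifferentiated replicates 1 and 2 or of differentiated replicates 2 and 3 was dropped (adjusted p = 0.0756 to 0.111). For Nudt9 the call was lost without any 1 array other than undifferentiated replicate 3 (0.0636 to 0.0870), and with the deposited values (0.0786) or median centring (0.113). For Aff1 the call was lost without differentiated replicate 2 (0.0679).

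**Figure D4:**
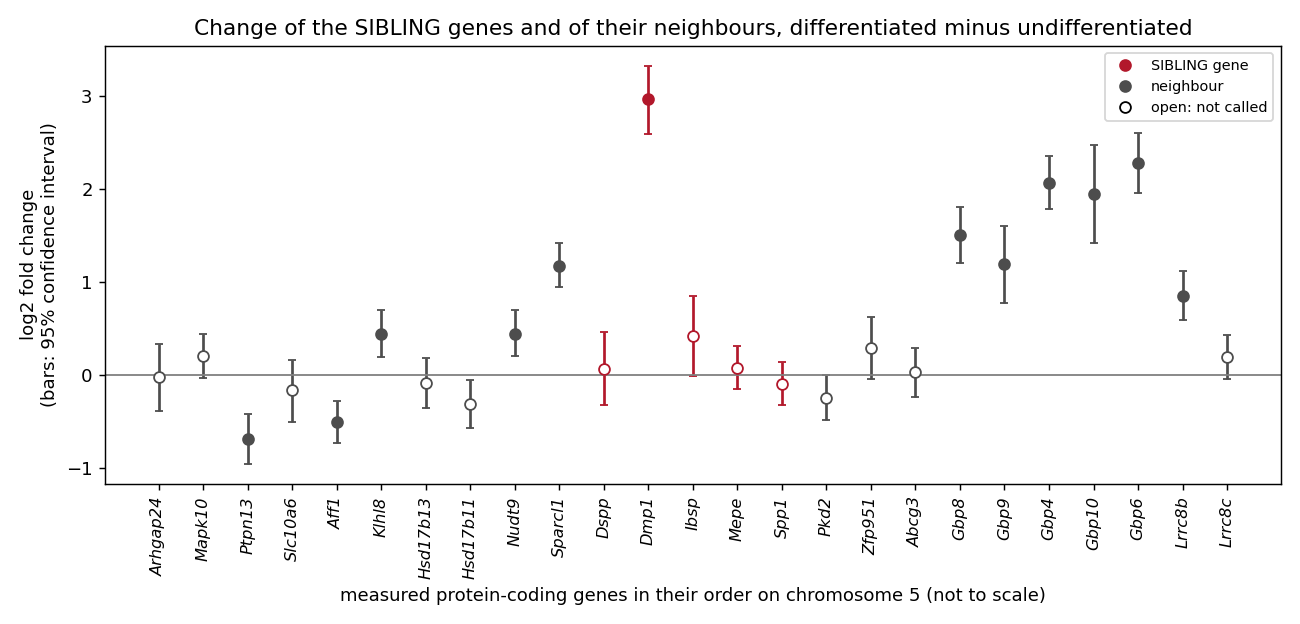
Measured protein-coding genes are set along the x axis in their order on chromosome 5, not to scale. The y axis is the log2 fold change, differentiated minus undifferentiated, with 95% confidence intervals; SIBLING genes are red, neighbours are grey and open circles were not called. Dmp1 at 2.96 stands between uncalled relatives, Sparcl1 lies at 1.17 and the Gbp genes lie at 1.19 to 2.27.

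Genes whose products bind, modify or accompany the members were taken in 7 lists with 69 measured genes. Of these 10 rose, 5 fell and 54 were not called. Their median log2 fold change was 0.04, and the share called was 21.7%, against 16.8% of genes with a symbol. The 16.8% is also the share to set beside the count of each list below, and no list was tested as a set. With array weights in limma 19 were called higher and 10 lower. That setting called 15846 of all 41938 entries, against 7135 in the main fit.

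Enzymes that modify SIBLING proteins included some of the clearest changes. Fam20c encodes the secretory pathway kinase that phosphorylates SIBLING proteins. It read 12.30, 12.30 and 12.38 in differentiated cells, against 10.97, 10.97 and 11.25 in undifferentiated cells, a 2.39-fold rise with no overlap (limma adjusted p = 0.000142). Ctsb, which encodes cathepsin B, a protease that can cut MEPE, read 12.07, 12.09 and 12.10, against 10.93, 10.90 and 11.32, a 2.05-fold rise. Tgm2, the transglutaminase that crosslinks osteopontin, fell 1.71-fold, at 12.52 ± 0.08 in differentiated and 13.29 ± 0.05 in undifferentiated cells (SD, n = 3 per group). Fam20a, a pseudokinase that partners Fam20c, rose 1.23-fold, but its call was lost without any 1 of the 6 arrays (adjusted p = 0.0627 to 0.163). It was also lost under some other settings, among them the deposited values (0.102) and median centring (0.148).

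In that list of 12 genes 3 rose, 1 fell and 8 were not called, with a median log2 fold change of 0.04. Bmp1, the protease that cuts DMP1 and DSPP into their mature fragments, had a log2 fold change of -0.01. Tll1, Mmp7 and Mmp20 lay below the random-sequence probes on every array.

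The receptors of SIBLING proteins moved both ways, 2 higher and 1 lower of 8, with a median log2 fold change of 0.15. Itga8, an integrin chain that pairs with the beta 1 chain, read 8.35, 8.44 and 8.51 in differentiated cells, against 6.88, 7.23 and 6.83 in undifferentiated cells. Its undifferentiated values lay only 0.09 to 0.42 above background, which limits how far its 2.74-fold rise can be read as a size. Itgb3, the beta chain of the osteopontin receptor alpha v beta 3, rose 1.43-fold, and its partner Itgav had a log2 fold change of 0.17 (adjusted p = 0.341). Cd44, which binds hyaluronan and osteopontin, read 13.37, 13.35 and 13.49, against 14.17, 13.93 and 14.01, a 1.54-fold fall.

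Other osteocyte markers did not follow Dmp1 as a group, with 2 higher, 3 lower and 5 not called of 10 and a median log2 fold change of -0.06. Fbln7, a fibulin, rose 4.20-fold, with 11.71, 11.69 and 11.49 in differentiated cells against 9.89, 9.66 and 9.12 in undifferentiated cells. Mmp14, the membrane collagenase that osteocytes need to form their processes, rose 1.42-fold. Gja1, which encodes the gap junction protein that joins osteocyte processes, read 11.57, 11.78 and 11.95, against 13.50, 12.93 and 13.36, a 2.83-fold fall. Hyou1, an endoplasmic reticulum chaperone, fell 1.52-fold and Cd44 is the third that fell.

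Sost and Fgf23, genes of the late osteocyte, did not pass. Sost, which encodes the Wnt antagonist sclerostin, read 9.36, 9.30 and 9.38 in differentiated cells, against 9.40, 9.67 and 9.23 in undifferentiated cells. Fgf23, the phosphate-lowering hormone, read 7.13, 7.18 and 7.25, against 7.26, 7.39 and 7.11, close to the random-sequence probes. In a shorter list of osteocyte markers (Sost, Fgf23, Dmp1, Mepe, Phex and Fbln7), Dmp1 and Fbln7 were the ones called. That list was also chosen with earlier results of these data known, and it leaves out Gja1, Cd44 and Hyou1, which fell.

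No relative of Phex was called, where 16.8% of genes with a symbol were called at large. Of 11 genes of the M13 peptidase family and of FGF23, its processing and its receptors, 0 passed in limma and 1 (Mme) had an unadjusted p under 0.05, with a median log2 fold change of 0.04. With array weights 2 were called higher and 2 lower, under a setting that called 15846 of all 41938 entries. Mme (neprilysin) read 12.88, 12.72 and 12.76 in differentiated cells, against 12.48, 12.51 and 12.55 in undifferentiated cells, with no overlap and a log2 fold change of 0.28 (adjusted p = 0.0724). It was called with array weights (0.0234), with the trend and robust options of eBayes (0.0430) and with an offset of 50 on the linear scale (0.0499). Ece1, an endothelin-converting enzyme, had a log2 fold change of -0.20.

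Relatives of Capg among 13 actin capping and severing genes gave 1 rise, 1 fall and 11 genes not called, with a median log2 fold change of -0.02. Cfl1, the filament-severing cofilin, rose 1.59-fold. Twf1, a twinfilin that binds actin monomers and capping protein, fell 1.47-fold, but was no longer called after undifferentiated replicate 2 (0.104) or either of differentiated replicates 1 (0.119) and 2 (0.139) had been dropped. Gsn, the gelsolin for which Capg's family is named, had a log2 fold change of -0.13.

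Among 10 partners of podoplanin, Cd9, a tetraspanin, rose 1.28-fold and Cd44 fell, and 8 were not called. The call of Cd9 was lost with the deposited values (adjusted p = 0.0670), with median centring (0.0989) and without any 1 array other than undifferentiated replicate 3 (0.104 to 0.144). The median log2 fold change of the list was 0.02. Ezr, Msn and Rdx, the linkers of podoplanin to actin, had log2 fold changes of 0.22, 0.21 and -0.19.

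Beyond the SIBLING genes, 8 of 9 other secretory calcium-binding phosphoprotein and SPARC genes were measured, and Sparcl1 was the only one called. Sparc, the abundant collagen-binding osteonectin, read 15.67 ± 0.07 in differentiated and 15.53 ± 0.24 in undifferentiated cells (SD, n = 3 per group). The enamel genes Ambn and Odam and the casein gene Csn3 lay below the random-sequence probes on every array.

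**Figure D5:**
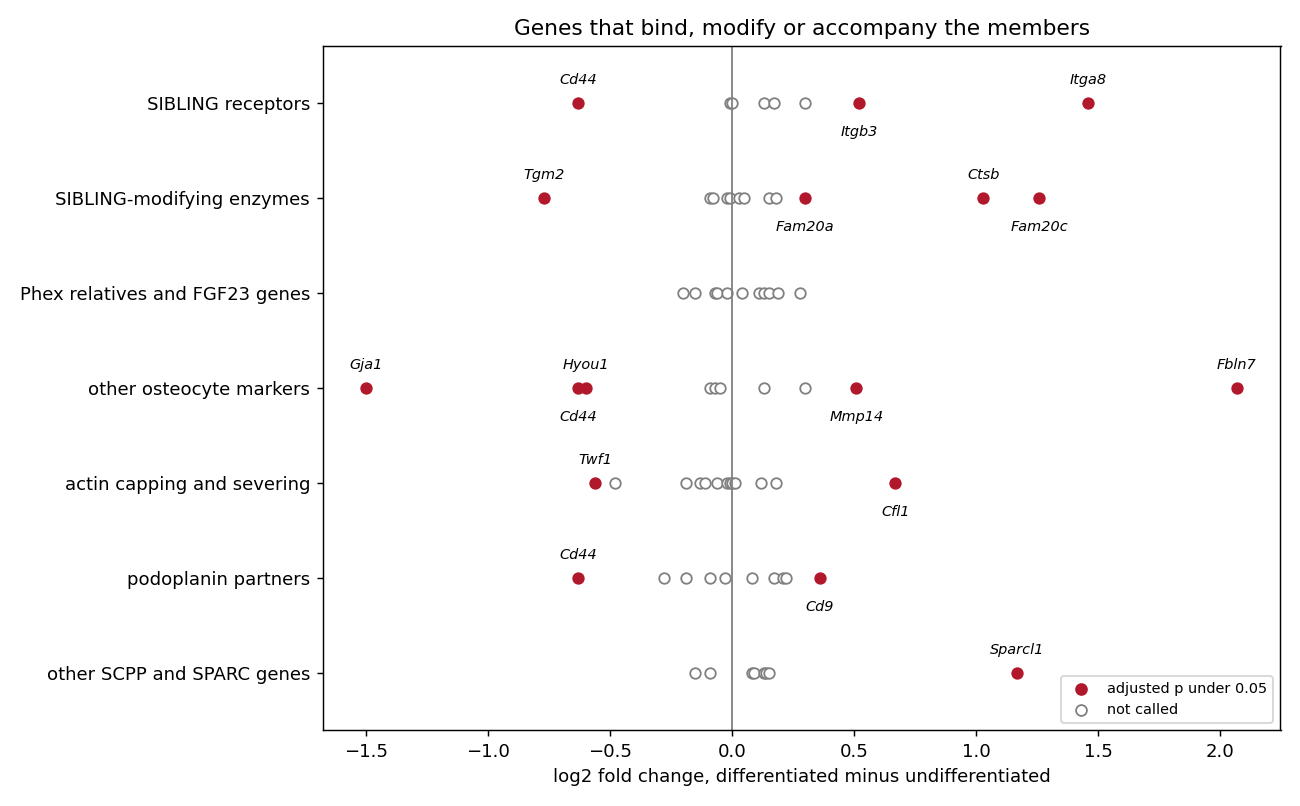
The x axis is the log2 fold change, differentiated minus undifferentiated, and each row is a list; Cd44 stands in 3 of them. Filled points passed at an adjusted p under 0.05 and carry their names, and open points were not called. Fbln7 at 2.07 lies farthest right, Gja1 at -1.50 farthest left, and the row of Phex relatives has no filled point.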

How the data were processed

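The deposited values are RMA intensity values on a linear scale, per the submitters' processing notes and the files. The version of RMA, the array design's genome build and joint or separate runs are not given in the sources used here. Values were put on the log2 scale; since sorted values of 2 arrays differed by a median of up to 0.135, the arrays were quantile normalized. The random-sequence row (6131 probes) was placed on that scale by interpolation. Accessions were matched to RefSeq symbols for 17846 probe sets and symbols or synonyms for 130; the probe set of the highest mean level stood for a gene. Differentiated minus undifferentiated was tested in limma 3.58.1 under R 4.3.3 (lmFit, eBayes, two-sided), with Benjamini-Hochberg adjustment over 41938 entries. The script was tested on simulated data. The 3 arrays per group limit precision, and depth does not apply to intensities.

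Members and gene lists were chosen with earlier results of these data known. All members were named; from each list up to 4 called genes, or 2 of the largest change if none was called; called neighbours; and the 5 genes most like a called member. Uncalled markers of the other cell types are not all printed, and uncalled genes of lists with a call were named after their values were seen. In the differentiated group the per-array file held under the sample titled replicate 1 is named replicate 2, and the reverse. The deposited value table has these values in the order of the file names. Replicate numbers here are those of the sample titles under which the files are held. Differentiated replicates 1 and 2 are thus swapped against the file names and the value table. Protein features planned were not analysed here. Alternatives were other scalings, a filter, probe set rules, an offset of 50, eBayes and array weight settings, replicate blocks, the value table, an adjusted p under 0.01 and each array left out.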

Additional observations from a re-analysis of the deposited data

How the results depend on the processing

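Dmp1 kept its direction and its call under all 19 alternatives (log2 fold change 2.78 to 3.15, adjusted p at most 0.000337). Spp1 and Capg stayed uncalled and negative under all 19, and Mepe stayed uncalled and positive under the 18 that tested it. Ibsp, Mepe and Phex were not tested with probe sets under the 25th percentile left out. Ibsp passed with array weights (0.47, adjusted p = 0.0104); with an array left out it ranged over 0.24 to 0.58. Pdpn passed with array weights (-0.31, adjusted p = 0.00695) and with the trend and robust options of eBayes (-0.27, adjusted p = 0.0240), each of which also took the adjusted p of Phex under 0.05 (0.0261 and 0.0436). The Phex difference of 0.23 in both lies between readings below the random-sequence probes in all 6 arrays, so these are not read as calls of a change. Dspp reversed with array weights (-0.05) and without undifferentiated replicate 3 (-0.09), and ranged over -0.09 to 0.27 with an array left out. The cause was not tested in any of these. The count of 7135 called entries was 15846 with array weights, 3184 at an adjusted p under 0.01 and 3141 (without differentiated replicate 2) to 9391 (without undifferentiated replicate 3) with an array left out; it was 4261 without differentiated replicate 1. The list counts of 10 higher and 5 lower were 19 and 10 with array weights.

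Same-numbered samples of the groups did not all deviate together. The correlations were 0.334, -0.145 and 0.459 by titles, and -0.010, 0.428 and 0.459 by file names. Not every sample correlated best with its own number under either numbering. With so few arrays per group, these correlations cannot settle whether the numbers pair the samples. With the replicate number as a block the count of called entries was 8984 (titles) or 10493 (file names), and Ibsp passed at 0.41 in both (adjusted p = 0.0145 and 0.0114); the block changed no other member's call.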
